A study of Homo sapiens with 4 samples.

Results

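The end of the long arm of chromosome 4 (distal 4q) held a stretch of 16.3 Mb in which TEAD4 peaks were called almost only in MKN28. The members described here are the peaks on chromosome 4 of hg19 whose midpoint lies from 140000000 to the chromosome end at 191154276. They number 591 of the 51017 peaks of both lists, with 505 of 39477 in MKN28 and 86 of 11540 in SNU216. The region was chosen by its low number of SNU216 peaks in these lists, so the SNU216 counts describe it and test nothing. By the same rule, the nearest peaks outside it were an MKN28 peak at chr4:139990929-139991210 (score 61.2) and an SNU216 peak at chr4:139935605-139935962 (score 125). Just inside were an MKN28 peak at chr4:140003905-140004301 (score 50.4) and an SNU216 peak at chr4:140216926-140217215 (score 86.7).

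MKN28 and SNU216 are established human gastric cancer cell lines, for which the labels give no treatment, time or genetic change. Chromatin immunoprecipitation followed by sequencing (ChIP-seq) was run on each with the same TEAD4 antibody, with 1 TEAD4 library and 1 input library, made without antibody, for each line. The authors called peaks in each TEAD4 library against the input of its own line, and each peak carries a score from their peak caller. There were no replicates, so differences between the lines carry no p-value. The lists hold no read counts, and the depth is therefore unknown. The 95% intervals given are exact binomial intervals for counting error, and they treat neighbouring peaks as independent, which they are not.

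TEAD4 is a transcription factor that binds DNA through its TEA domain and recruits the co-activators YAP and TAZ, which the Hippo kinase cascade keeps out of the nucleus when it is active. In epithelial cells TEAD factors bind mostly at distal enhancers, often beside AP-1 factors, and regulate genes of growth, adhesion and the cytoskeleton. Distal 4q alternates between gene-poor dark bands and gene-richer light bands. As textbook background on the bands, and not as an assignment of any peak, 4q31.21 holds SMAD1, a mediator of BMP signalling, and 4q31.3 holds FBXW7, which marks cyclin E and MYC for degradation. The actin-binding gene PALLD lies in 4q32.3, the neuronal membrane gene GPM6A in 4q34.2 and the lymphangiogenic growth factor gene VEGFC in 4q34.3. In 4q35.1 lie IRF2, a regulator of interferon responses, TLR3, a receptor for double-stranded RNA, and the cytoskeletal genes PDLIM3 and SORBS2. In 4q35.2 lie FAT1, an atypical cadherin that acts upstream of Hippo signalling, and the coagulation genes KLKB1 and F11. The arm ends in repeats that carry copies of DUX4, the gene tied to facioscapulohumeral muscular dystrophy, with near-identical copies on 10q.

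By the border search given next, SNU216 peaks thinned out in 4q34.1 and returned only just before the chromosome end. Band 4q33, just before, already held few. All peaks of the region were put in order along the chromosome, and 2 borders were placed where 3 stretches of constant SNU216 share gave the highest binomial likelihood. The middle stretch, called the SNU216-poor block here, ran from the MKN28 peak at chr4:174173308-174173970 to the MKN28 peak at chr4:190452471-190452812. It held 170 MKN28 peaks and 4 SNU216 peaks, an SNU216 share of 2.30% (95% interval 0.630 to 5.78). From 140 Mb to the block the counts were 323 and 62, a share of 16.1% (12.6 to 20.2). Beyond the block, in the last 0.701 Mb, they were 12 and 20, a share of 62.5% (43.7 to 78.9). The share was 22.6% over chromosomes 1 to 22 and X and 23.9% on chromosome 4 before 140 Mb (1309 and 410 peaks).

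**Figure D1:**
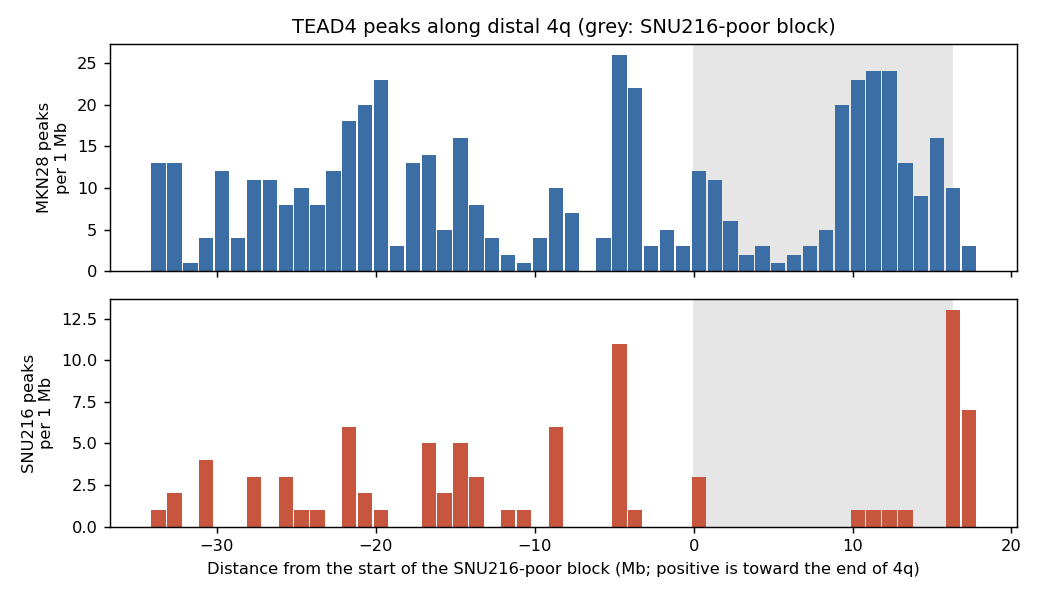
TEAD4 peaks per 1 Mb window in MKN28 (upper panel) and SNU216 (lower panel), by distance from the start of the SNU216-poor block in Mb, with the block in grey. Within the grey block SNU216 bars of 1 peak appear in 4 windows, while MKN28 reaches 24 peaks per window. The SNU216 bar at the left edge holds the 3 peaks that precede the block in the order of midpoints. The SNU216 bars at the right edge hold only peaks past the end of the block, although the first of these bars is drawn partly over the grey.

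The last SNU216 peaks before the block lay close together in 4q34.1. They were at chr4:174103536-174103823 (score 51.2), chr4:174130548-174130968 (score 62.7) and chr4:174173398-174173801 (score 117). Each overlapped an MKN28 peak, as did 59.3% of the whole SNU216 list, with partner scores of 107, 352 and 211. The partner of the last one is the first MKN28 peak of the block, since its midpoint lies slightly further along, so the start of the block is the position of that pair. Ahead of these 3 SNU216 peaks, a gap of 3.24 Mb from chr4:170863946 to 174103535 held no SNU216 peak and passed 12 MKN28 peaks. SNU216 peaks were thus already few before the block, and its start rests on these 3 peaks. The first SNU216 peaks past the block were at chr4:190524119-190524712 (score 50.2), chr4:190643069-190643764 (score 53.5) and chr4:190892190-190892514 (score 58.3), all in 4q35.2. None of these 3 overlapped an MKN28 peak, and the nearest MKN28 peak was 71.3, 182 and 9.67 kb away.

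Over the whole chromosome, the thinning appeared as a second step only when 4 stretches were allowed. When borders were searched over the whole of chromosome 4 with 3 stretches, the low stretch began at chr4:87154569, in 4q21.3, and held 949 MKN28 and 141 SNU216 peaks (12.9%). With 4 stretches, a setting added after seeing the data, both borders of the block came back at the same peaks. The share was then 28.2% (25.7 to 30.9) up to 86.96 Mb, 14.96% (12.7 to 17.4) from there to 174.17 Mb, 2.30% in the block and 62.5% at the end. The block is thus the lowest part of a longer stretch of 4q in which SNU216 peaks were fewer than on the rest of the chromosome.

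Between 140 Mb and the block, SNU216 peaks were unevenly spread. Of 34 windows of 1 Mb there, 15 held no SNU216 peak, and those 15 held 0 to 13 MKN28 peaks. By contrast, 33 of the 62 SNU216 peaks lay in 5 windows with at least 5 SNU216 peaks each, a limit set after seeing the counts. The like counts over windows of all chromosomes are not given here, so these describe this stretch only. The window nearest the block, 169 to 170 Mb in 4q32.3, had 11 SNU216 and 26 MKN28 peaks, with 6 overlapping pairs. The window at 165 to 166 Mb, in the same band, had 6 and 10, with 5 pairs. The windows at 157 to 158 and 159 to 160 Mb in 4q32.1 had 5 SNU216 peaks each, beside 14 and 16 MKN28 peaks. They held 4 and 3 overlapping pairs. In the window at 152 to 153 Mb in 4q31.3 each of the 6 SNU216 peaks overlapped 1 of the 18 MKN28 peaks. Over the whole SNU216 list, 59.3% of peaks overlapped an MKN28 peak.

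By band, the SNU216 share was 20.5% in 4q31.21 (9 SNU216 and 35 MKN28 peaks), 20.3% in 4q32.1 (15 and 59) and 23.9% in 4q32.3 (17 and 54), near the share over all chromosomes. It was 10.98% in 4q31.3 (9 and 73), with an interval of 5.14 to 19.8 that ends below that share. The part of 4q31.1 past 140 Mb had 1 SNU216 and 22 MKN28 peaks, 4q33 had 1 and 21, and 4q34.1 had 3 and 33. The rest of 4q31.1 lies before 140 Mb and was left out of this count. Bands 4q34.2 and 4q34.3 held 0 SNU216 peaks beside 6 and 21 MKN28 peaks. Band 4q35.1 was the richest in MKN28, at 22.1 peaks per Mb, and had 3 SNU216 and 86 MKN28 peaks (3.37%, 0.701 to 9.54). Band 4q35.2 had 21 and 49, of which 20 SNU216 peaks lay past the block.

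**Figure D2:**
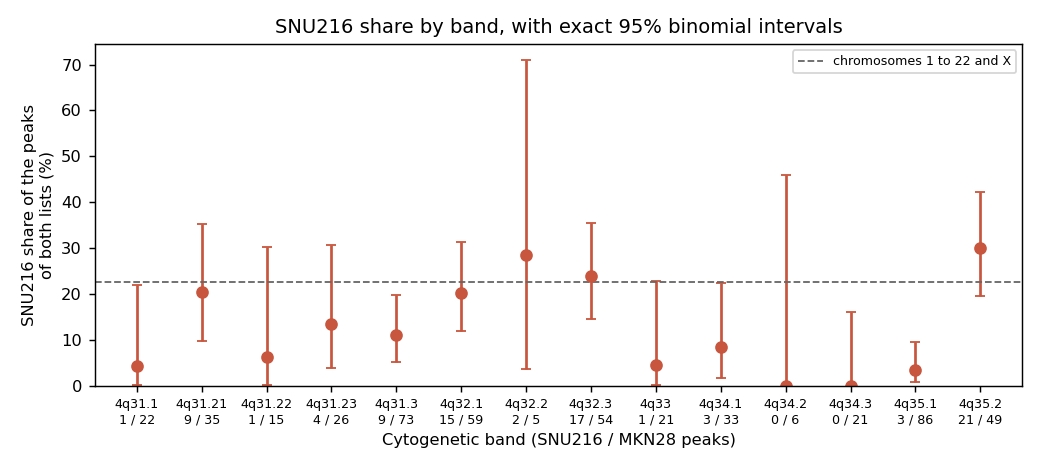
SNU216 share of the peaks of both lists by cytogenetic band from 140 Mb to the end of 4q, in percent, with exact 95% binomial intervals and the number of SNU216 and MKN28 peaks under each band name. The dashed line is the share over chromosomes 1 to 22 and X (22.6%). The intervals of 4q31.1, 4q31.3, 4q34.1, 4q34.3 and 4q35.1 end below it, while 4q35.2 is at 30%. For 4q31.1 only the part past 140 Mb is counted.

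The parts of the block differed in how many peaks MKN28 had. From its start to 177 Mb there were 24 MKN28 peaks, or 8.49 per Mb. From 177 to 183 Mb, mostly in the dark band 4q34.3, no window of 1 Mb held more than 5 MKN28 peaks, and MKN28 had 16 peaks in 6 Mb, or 2.67 per Mb, so few peaks were called there in either line. From 183 Mb to the end of the block MKN28 had 130 peaks, or 17.4 per Mb, above its 9.49 per Mb over chromosome 4 and 13.0 per Mb over chromosomes 1 to 22 and X. All 4 SNU216 peaks of the block were in this last part. Its 4 windows of 1 Mb with at least 20 MKN28 peaks held 0, 1, 1 and 1 SNU216 peaks. Across chromosomes 1 to 22 and X, 756 windows held at least 20 MKN28 peaks, their median was 7 SNU216 peaks (quartiles 4 and 10), and 56 of them (7.41%) held 0 or 1. The low counts in the windows of the block follow from how it was chosen and are a description only.

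The longest gap without an SNU216 peak ran from chr4:174173802 to 184020003, or 9.85 Mb. It passed 59 MKN28 peaks, of which 30 had a score of at least 100 (49.9% of the whole list did) and the strongest scored 1009. Among the 11499 gaps between neighbouring SNU216 peaks on chromosomes 1 to 22 and X, it passed the most MKN28 peaks, narrowly ahead of gaps of 3.84 Mb in 2p24.3 to 2p24.2 and of 2.19 Mb in 9q34.2 to 9q34.3 with 58 each. By length it was the second longest outside centromeres, after 17.0 Mb on the X chromosome. The third longest, 9.39 Mb with 38 MKN28 peaks, was also on 4q, from chr4:129732553 to 139120692. Later gaps passed 35 MKN28 peaks (1.53 Mb in 4q35.1, inside the block) and 31 (2.92 Mb in 4q35.2, ending just past the block). A median gap was 0.0798 Mb long and passed 1 MKN28 peak.

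Of the 23 chromosomes compared, no other had so long a run of peaks with so few from SNU216. In any run of 174 consecutive peaks, the number in the block, the fewest SNU216 peaks found on chromosome 4 was 4, in the block itself. On the other 22 chromosomes the fewest was 11 to 34. The next lowest runs were in Xq21.1 to Xq24 (11), in 10p12.33 to 10p11.23 (12), in 2p25.1 to 2p24.2 (12) and in 22q11.21 to 22q11.23 (12). This ranks the block among places found by the same search and is no test of it.

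**Figure D3:**
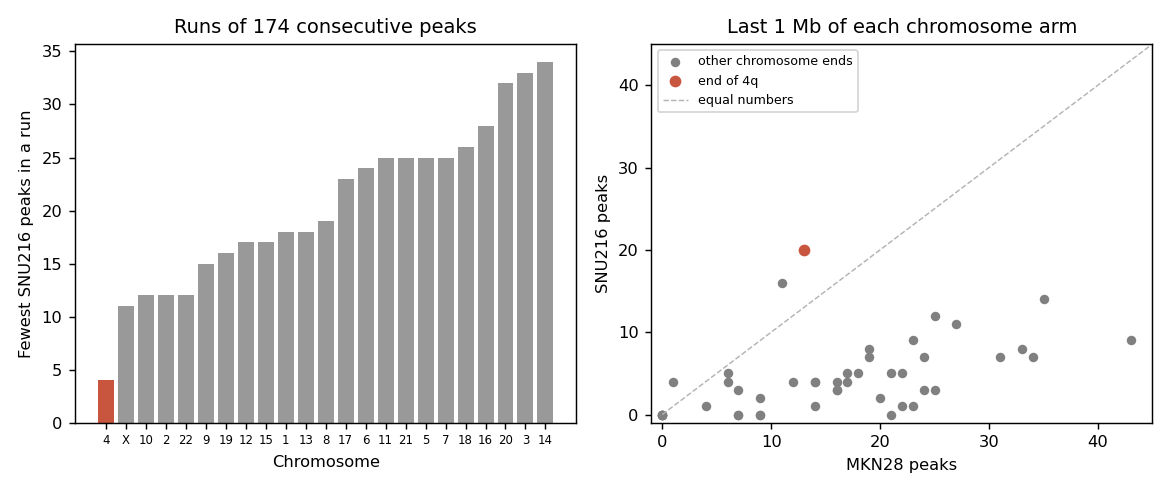
Left, the fewest SNU216 peaks in any run of 174 consecutive peaks of both lists, by chromosome; chromosome 4 has 4 and the others 11 to 34. Right, peaks of SNU216 against MKN28 in the last 1 Mb of each chromosome arm, where the end of 4q has 20 SNU216 and 13 MKN28 peaks and the dashed line marks equal numbers.

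The 4 SNU216 peaks of the block were weak to middling in their list, and 3 of them sat on MKN28 peaks of higher score. The first, in 4q35.1 at chr4:184020004-184020324, scored 91.3 (percentile 53.7 of the SNU216 list) and lay inside an MKN28 peak that scored 705 (percentile 95.8 of the MKN28 list). The next, at chr4:185305133-185305461, scored 53.3 (percentile 7.79), and its MKN28 partner scored 198 (percentile 74.9). Another, at chr4:186835684-186836043, scored 75.8 and overlapped no MKN28 peak, the nearest being 4.27 kb away. The last, in 4q35.2 at chr4:187606027-187606395, scored 93.2 (percentile 54.7), and its partner at chr4:187606055-187606530 was the strongest MKN28 peak of the block. That partner scored 1273 and ranked 444 of 39477.

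For these 3 pairs the SNU216 score was 0.129, 0.270 and 0.0733 times that of the MKN28 partner. Over all 6841 overlapping SNU216 peaks the median ratio was 0.565, and over the 42 between 140 Mb and the block it was 0.479 (0.0746 to 2.42). The 3 ratios of the block were thus below both medians, and 2 of them within the range of the 42. The MKN28 partners in the block had a median score of 705, against 230 over all pairs and 251 between 140 Mb and the block. The ratios are therefore set side by side at unlike MKN28 scores. Scores of 2 lists set side by side describe these libraries only, since a score may depend on the depth of each.

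The MKN28 peaks of the block had scores close to those of MKN28 peaks elsewhere. Their median score was 103 (quartiles 66.9 and 198), with a 95% interval of the median of 88.5 to 124. It was 90.7 (83.7 to 103) from 140 Mb to the block, 96.5 (91.1 to 101) on chromosome 4 before 140 Mb and 99.8 (98.7 to 101) over the whole list, and the interval of the block holds all 3 medians. Of the 170, 89 scored 100 or more (52.4%, 44.6 to 60.1), against 49.9% of the whole list. Their median width was 490 bp, against 488 bp over chromosome 4 and 525 bp over the list. Relative to MKN28 peaks of like score the width was 0.947, beside 0.941 over chromosome 4. The score and the width of the MKN28 peaks took no part in choosing the region.

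The strongest MKN28 peaks of the block lay in all of its bands. After the peak of 4q35.2 named above came chr4:176365674-176366250 in 4q34.2 (score 1009) and chr4:175321961-175323356 in 4q34.1 (score 812). The second of these was 1396 bp wide, 1.78 times the median of MKN28 peaks of like score. In 4q35.1 were chr4:185669293-185669838 (score 791), chr4:185546844-185547791 (score 710) and the peak at chr4:184019890-184020378 (score 705) whose SNU216 partner is given above. In 4q34.3, neighbouring peaks at chr4:183161172-183162242 and chr4:183163764-183164693 scored 755 and 618, and one at chr4:178371991-178372732 scored 629. The remaining peak of the 10 was chr4:188942900-188943557 in 4q35.2 (score 630). Of these 10 peaks, 2 overlapped an SNU216 peak. Over the whole list 17.1% of MKN28 peaks did, and 53.2% of those with a score of at least 500. Few overlaps were possible in the block, by its choice.

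**Figure D4:**
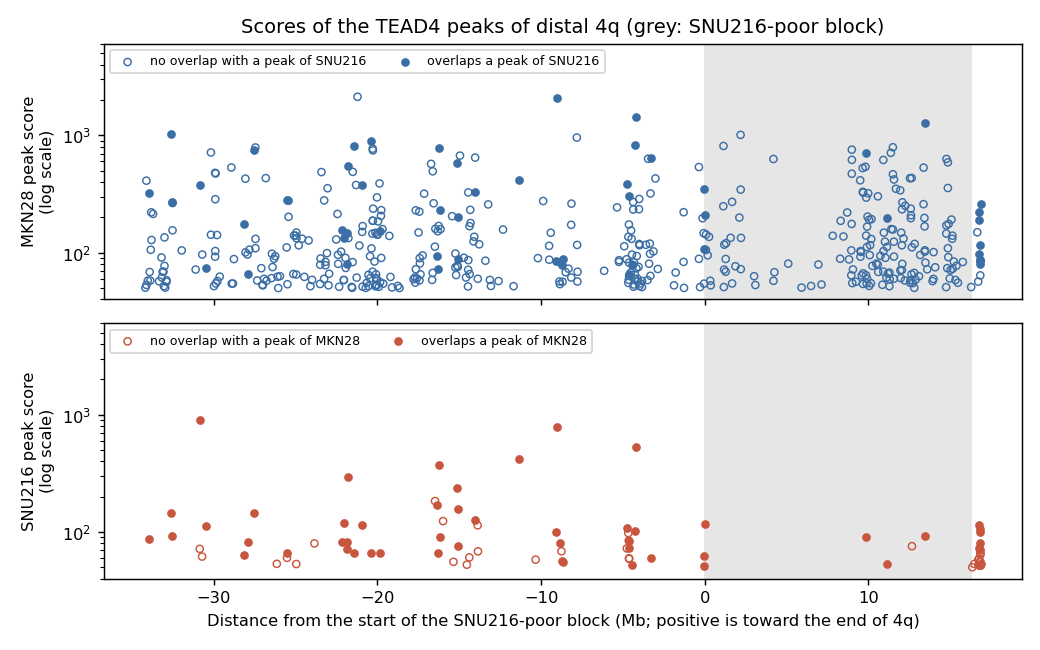
Scores of all MKN28 (upper panel) and SNU216 (lower panel) peaks of distal 4q on a log axis, by distance from the start of the SNU216-poor block in Mb, with the block in grey. Filled points overlap a peak of the other list; in the block MKN28 scores reach 1273 with 4 filled points of 170, and the 4 SNU216 points lie between 53.3 and 93.2.

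Few MKN28 sites of the block were also called in SNU216. With 4 SNU216 peaks in the block and 1 at its start, few overlaps were possible, so the low overlap follows from how the block was chosen and is given as a description only. Overlap means at least 1 shared bp, and 17.1% is its share over the whole MKN28 list. In distal 4q 54 of 505 MKN28 peaks overlapped an SNU216 peak (10.7%, 8.14 to 13.7), and in the block 4 of 170 (2.35%, 0.645 to 5.91), the pair at its start included. From 140 Mb to the block 41 of 323 did (12.7%, 9.27 to 16.8). The overlap rises with the MKN28 score, so each list was divided by score into 10 equal groups and each peak was given the overlap share of its group in the whole list. At those shares 29.98 of the 170 peaks of the block would overlap, where 4 did, a gap that the choice of the block fixes. Before it, the numbers were 52.4 and 41 of the 323 peaks.

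The score groups describe which MKN28 sites lacked an SNU216 peak. With so few SNU216 peaks in the block, its share is low in each score group by the choice of the block. Among MKN28 peaks in the highest-scoring 20% of the list (244 and above), 40.3% of the whole list overlapped an SNU216 peak and 37.0% (30.9 to 43.4) on chromosome 4 before 140 Mb. Between 140 Mb and the block 21 of 59 did (35.6%, 23.6 to 49.1), and in the block 2 of 35 (5.71%, 0.6997 to 19.2). In the next 30% of the list (from the 50% to the 80% rank) the share was 18.7% in the whole list, 9.20% (4.05 to 17.3) before the block and 3.70% (0.452 to 12.7) in it. In the lowest-scoring 50% it was 6.91%, 6.78% (3.55 to 11.5) and 0 of 81. With a score of at least 500, 13 of 15 MKN28 peaks of the block had no SNU216 peak, against 12 of 23 between 140 Mb and the block and 1446 of 3093 in the whole list. An MKN28 site with no SNU216 peak did not pass the peak caller in SNU216, and TEAD4 may still bind there below that limit. The input libraries were not analysed here, so the amount of DNA behind a missing peak was not tested.

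**Figure D5:**
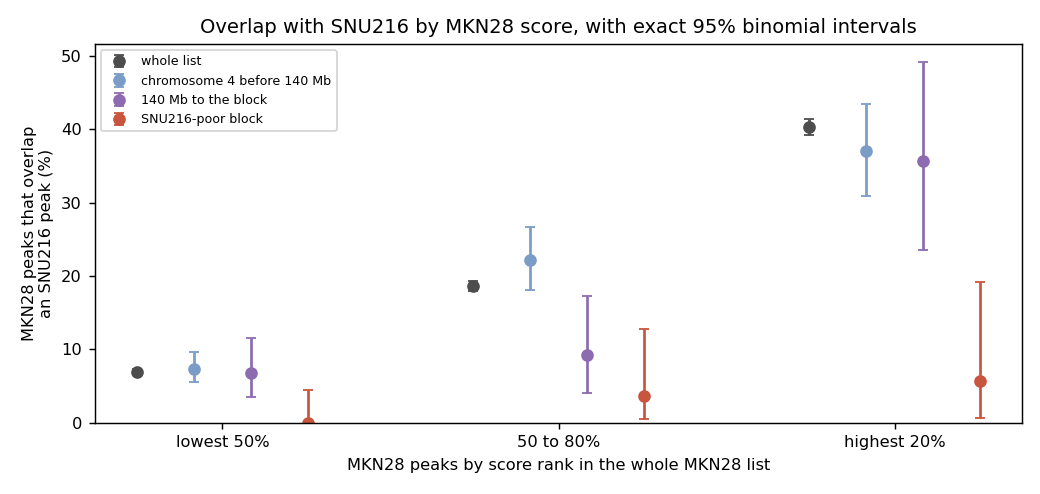
Share of MKN28 peaks that overlap an SNU216 peak, in percent, in 3 groups by score rank in the whole MKN28 list, with exact 95% binomial intervals. In the highest 20% the block is at 5.71%, against 35.6% between 140 Mb and the block and 40.3% in the whole list. The low shares of the block follow from how it was chosen.

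Outside the block, strong sites of both lines were found in distal 4q. The highest SNU216 score of the region, 906 (rank 113 of 11540), was at chr4:143329184-143329780 in 4q31.21. The MKN28 partner there scored 375, within the highest-scoring 20% of the MKN28 list (244 and above). The next was at chr4:165125589-165126115 in 4q32.3 with 784, on the second strongest MKN28 peak of the region (score 2069). A pair in 4q32.3 at chr4:169991119-169991818 scored 526 in SNU216 and 1445 in MKN28. Pairs in 4q32.2 at chr4:162857712-162858367 (417 and 418) and in 4q32.1 at chr4:157934026-157934509 (374 and 783) followed. The strongest MKN28 peak of the region, at chr4:152966823-152967852 in 4q31.3, scored 2130 and overlapped no SNU216 peak. The fifth strongest, at chr4:141556796-141557219 in 4q31.21, scored 1027 and its SNU216 partner 146. Of the 86 SNU216 peaks of distal 4q, 54 overlapped an MKN28 peak (62.8%, 51.7 to 73.0), near the 59.3% of the whole list.

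Past the block, SNU216 peaks returned as a dense group of weak and wide peaks. Of the 20, 18 lay within 142 kb, from chr4:190892190 to 191034257, the last of them 120.02 kb from the chromosome end. Their scores ran from 50.2 to 116 with a median of 58.7, and 3 of 20 reached 100, against 42.2% of the whole SNU216 list. Their median width was 512 bp, and they were 1.32 times as wide as SNU216 peaks of like score. The 12 MKN28 peaks there were 1.32 times as wide as well, with a median score of 92.0 and a highest of 262. The highest SNU216 score, 116, was at chr4:190908439-190908939, where the MKN28 partner scored 96.9. In all, 9 of the 20 SNU216 peaks (45%, against 59.3% of the whole list) overlapped 9 of the 12 MKN28 peaks (75%, against 17.1%). The median score ratio of these pairs was 0.819. The border search set this stretch apart by its high SNU216 share, which favours a high share of overlapping MKN28 peaks. The 75% is therefore a description only.

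In its last 1 Mb, 4q had more SNU216 peaks (20) than any of the other 45 chromosome ends compared (acrocentric short arms included), which had 0 to 16 with a median of 4. The end of 20q followed with 16 beside 11 MKN28 peaks, and the end of 10q had 9 beside 23. SNU216 peaks outnumbered those of MKN28 at 3 of the 46 ends, 4q among them. The end of 4q carries sequence that is nearly the same on 10q, and how the authors placed reads that fit several positions is not given in the sources used here. Peaks of this last stretch are therefore uncertain in position. They are not counted in the block, but they took part in placing its end, which moved to 190826189 when only scores of 100 and above were used.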

How the data were processed

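The series holds 4 samples, a TEAD4 ChIP-seq library and an input library for each of MKN28 and SNU216, and the groups come from the sample titles. Per the submitters' processing notes, CASAVA 1.8, Bowtie2 2.0.0 and MACS were used with hg19, and no settings are given. The authors deposited 1 peak list per TEAD4 library, with a position and a score per peak. The formula of the score is not given in the sources used here, and scores were ranked within 1 list.

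Positions were converted to 1-based coordinates. Bands and chromosome lengths of hg19 came from circlize 0.4.16, and 0 peaks lay past a chromosome end. Overlap meant at least 1 bp. Equal groups by score (10) and groups for width at like score (50) were formed within each list, by rank. The intervals of a share are Clopper-Pearson, and that of a median comes from order statistics. The search for borders was tested on simulated shares, with a sharper drop at the start and a longer last stretch than in these data. The overlap step was tested on copies of MKN28 peaks, left in place or moved off. Python 3.11.15, numpy 2.4.6, pandas 2.3.3, scipy 1.17.1 and matplotlib 3.10.9 were used.

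The rule for named peaks took every SNU216 peak of the block, the 3 nearest on either side, the 10 strongest MKN28 peaks of the block, the 5 strongest peaks of each list and the 5 strongest overlapping pairs of the region. Members, lists and rules were chosen with earlier results of these data known. A genome or annotation of hg19 was not used here, so peaks have no genes and no sequences. All 35 genes of distal 4q that were looked up were found on chromosome 4 of RefSeq's GRCh38.p14 table, which was used for names only.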

Additional observations from a re-analysis of the deposited data

How the results depend on the processing

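Of 27 alternative values, 15 kept their value within the interval of the main one or at the same peak. When both lists were limited to scores of 100 and above, the SNU216 share was 9.09% in distal 4q and 0% in the block (0 of 89), against 19.8% over chromosomes 1 to 22 and X. The share of MKN28 peaks of distal 4q that overlapped was then 7.08%, and the median MKN28 score of the block was 197 by construction. With an MKN28 list of equal length, the SNU216 share was 38.4% in distal 4q and 7.27% in the block, against 49.98% over those chromosomes. The block was the lowest stretch in each of these settings. Since each uses part of the peaks on which the block was chosen, this largely follows from that choice. Asking for 50% of both peaks lowered the share of overlapping SNU216 peaks to 50%, by construction.

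The start stayed at the same peak except when it was searched over the whole chromosome with 3 stretches (87154569) or set by the longest gap (174173802). With scores of at least 100, it rested on the SNU216 peak at the border, which scored 117. With lists of equal length, the SNU216 list was unchanged. The end was 190826189 with a score of at least 100, 189250740 with lists of equal length and 184020003 for the longest gap. By construction, the first of these leaves out the SNU216 peaks just past the block, which score under 100, the second leaves out weak MKN28 peaks at its end, and the gap rule allows no SNU216 peak. Without windows of few MKN28 peaks, an added setting, the share in the block was 2.80%. No replicate could be left out. No paired analysis was possible because each line had only 1 TEAD4 library. Unknown depth limits every statement on a missing peak.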
